A study of Mus musculus with 10 samples.

Results

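The Tudor domain genes of the germ granules were followed in the germ cells of wild-type mice and of mice with a mutant gonadotropin-regulated testicular RNA helicase (GRTH, gene Ddx25), a helicase of the chromatoid body. The set held Tdrd1, Tdrd3, Tdrd5, Tdrd6, Tdrd7, Tdrd9, Tdrd12, Tdrkh, Stk31 and Rnf17, chosen by symbol, and all 10 were found among the 15507 genes of the expression table. Testes of 5 wild-type (WT) and 5 homozygous GRTH Knock-In (KI) mice, 45 days old, were digested with collagenase and trypsin, and poly(A) RNA of the released germ cells was sequenced as 1 library per mouse. The KI allele is a human GRTH gene bearing R242H, a mutation that takes away the phosphorylated form of the protein. Each preparation was a mixture of spermatogonia, spermatocytes and spermatids. The sources used here name no strain, and they name no agent given to either genotype. A WT library held 13323024 to 16422347 reads on genes, with a median of 15203687, and a KI library 12722086 to 15500582, with a median of 15182116. The KI mean less the WT mean was −349945 reads, within the spread of the libraries by an exact permutation test (two-sided, p = 0.659).

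Tudor domains are protein modules that bind methylated arginine or lysine. In male germ cells, PIWI proteins carry methylated arginines near their ends, and multi-Tudor proteins bind them and gather the piRNA machinery into granules, first as cement between mitochondria of spermatocytes and later as the single chromatoid body of round spermatids. Loss of these proteins is known to derepress transposons, to lower piRNAs or to break up the chromatoid body, and in most cases leaves the male sterile.

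The promoters of the set are shown because many piRNA pathway genes are known targets of MYBL1 (A-MYB), the MYB transcription factor of pachytene spermatocytes, whose core letters are AACNG, or CNGTT on the other strand. RefSeq windows on GRCm38.p6 that reach from 250 bases before to 50 after a start site were at hand for 8 of the 10 genes, and for Tdrd6 and Rnf17 no window was used here. The 50 bases from 40 before the start site to 10 after it are printed 5′ to 3′ for the 4 genes in which the window nearest to the gene's start in the expression table held the core, which stands in capitals.
Tdrd1, chr19:56826169-56826218, plus strand: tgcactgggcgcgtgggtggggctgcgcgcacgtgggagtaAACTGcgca
Tdrd5, chr1:156303339-156303388, minus strand: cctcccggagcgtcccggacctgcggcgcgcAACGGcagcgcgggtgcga
Tdrd9, chr12:111971519-111971568, plus strand: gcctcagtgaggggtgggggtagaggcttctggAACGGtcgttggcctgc
Tdrd12, chr7:35537735-35537784, minus strand: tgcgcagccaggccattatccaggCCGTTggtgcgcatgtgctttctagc
The core was found in that 50-base stretch of any window in 5 of the 8 Tudor domain genes (the fifth is Tdrd7, in a window further into the gene), and in 27.0% of the 27025 mouse genes with a window. Over the whole window of 300 bases it was found in 7 of the 8, Tdrd3 being the exception, and in 82.4% of all genes, so that the longer window held it in most promoters of any kind. The Tdrd5 window starts 258 bases from the gene's start in the expression table. The letters and the stretch were chosen after the sequences were seen, and a match is a description of sequence and not a measured site. Mybl1 itself had 1420 ± 210 normalized counts in WT and 1404 ± 225 in KI (SD, n = 5 each), and its log2 fold change was −0.02 (SE 0.12, adjusted p = 0.939).

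A normalized count here is the number of reads on a gene divided by the size factor of its library, which corrects for depth. The targeted gene was compared first. Ddx25 had 7615, 7782, 5198, 11101 and 9458 normalized counts in WT libraries 1 to 5 and 146, 194, 161, 2.88 and 1.84 in KI libraries 1 to 5. These are reads on the mouse gene, and the KI allele is a human gene. They are therefore no measure of the transcript made from the KI allele. All KI libraries lay below all WT libraries, and KI libraries 4 and 5 lay at or under a count of 3 reads (2.61 to 3.62 normalized counts, depending on the library), which is also the most that a count of 0 leaves possible. These limits cover counting error only. The libraries differed by number too. On principal components of the 500 most variable genes, the first (74.1% of the variance) parted the genotypes and the second (9.75%) parted libraries 4 and 5 of both genotypes from libraries 1 to 3. No label gives a date or a batch for them, so the fold changes of the 10 Tudor domain genes are also given below within libraries 1 to 3 and within libraries 4 and 5, and those of other genes where a call depends on the part.

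**Figure D1:**
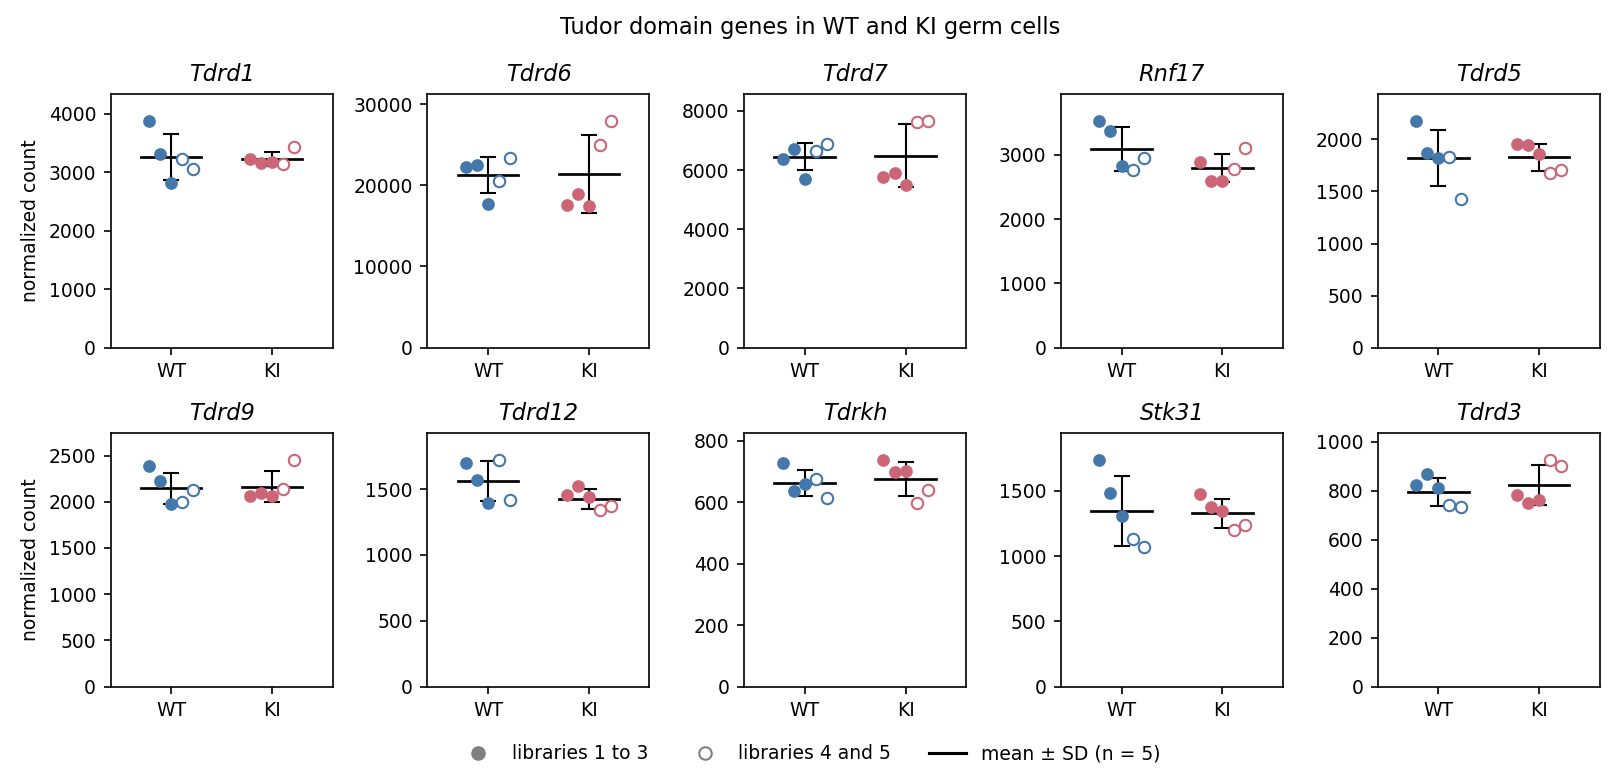
Normalized counts (y axis, from 0) of the 10 Tudor domain genes in each WT and KI library, with filled points for libraries 1 to 3, open points for libraries 4 and 5, and bars for the mean ± SD (n = 5 per genotype). WT and KI points overlap in all 10 panels, and the open KI points stand clear of the filled KI points in panels such as Tdrd6 (24997 and 27950 against 17422 to 18960) and Tdrd7.

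None of the 10 Tudor domain genes was differentially expressed between KI and WT. Their log2 fold changes lay between −0.14 (Rnf17) and 0.05 (Tdrd3), with 6 values below 0 and 4 above. Differentially expressed genes (DEGs) were those with a change of at least 1.5-fold and an adjusted p under 0.05, and 14.4% of the 15389 tested genes passed, 6.13% up-regulated and 8.22% down-regulated. By adjusted p alone 22.9% of the tested genes passed and 0 of the 10, and no member passed an unadjusted p under 0.05 in limma, in edgeR or in DESeq2. The smallest adjusted p among them was 0.321 (Rnf17), and 0.205 with the library number as a block. In 17.7% of the tested genes the 5 KI values lay outside the range of the 5 WT values, and in 0 of the 10. All 10 passed the filter on low counts, with 546 to 30379 reads per library.

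The precision behind these values allows a bound. The 95% confidence intervals of the 10 fold changes reached from 0.787-fold (Rnf17) to 1.22-fold (Tdrd6). A change of 1.5-fold in either direction thus lay outside the interval of every member, under this scaling and with all 10 libraries fitted together. The same held for 54.0% of all tested genes. The bound does not extend to libraries 4 and 5 alone, where standard errors were larger. There they were 0.16 for Tdrd6 and 0.14 for Tdrd3, against 0.14 and 0.09 over all 10 libraries. The standard errors ran from 0.09 to 0.14 on the log2 scale, against a median of 0.14 over all tested genes. The median absolute log2 fold change was 0.01 in the set and 0.21 over all tested genes.

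Tdrd6 and Tdrd7 encode multi-Tudor proteins that are needed for the chromatoid body to hold its shape. Tdrd6 (chr17:43615335-43630299, minus strand, mm10, 5 exons, of which the largest makes up 93.9% of the longest coding transcript) had 22291, 22467, 17742, 20563 and 23415 normalized counts in WT libraries 1 to 5. In KI libraries 1 to 5 it had 17573, 18960, 17422, 24997 and 27950. The means were 21296 ± 2237 in WT and 21380 ± 4803 in KI (SD, n = 5), a log2 fold change of −0.02 (SE 0.14, 95% interval −0.32 to 0.29, adjusted p = 0.956). KI thus held both the lowest and the highest values, with libraries 1 to 3 at the low end and libraries 4 and 5 above every WT library. Tdrd7 (chr4:45965335-46034765, plus strand, 17 exons) showed the same order of KI libraries, with 5752, 5906, 5505, 7623 and 7669 normalized counts in KI libraries 1 to 5 and 6377, 6698, 5706, 6649 and 6874 in WT. Its means were 6461 ± 458 in WT and 6491 ± 1064 in KI, and its log2 fold change was −0.01 (SE 0.11, interval −0.25 to 0.23, adjusted p = 0.981).

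Tdrd1, Tdrkh, Tdrd9, Tdrd12 and Tdrd5 encode proteins that work with PIWI proteins in piRNA production. Tdrd1 (chr19:56826209-56870012), the partner of PIWIL2 in the intermitochondrial cement, had 3261 ± 395 normalized counts in WT (2824 to 3882) and 3227 ± 118 in KI (3150 to 3429), a log2 fold change of −0.01 (SE 0.09, adjusted p = 0.966). All 5 KI values of Tdrd1 lay inside the WT range, and its coefficient of variation in KI, 3.67%, was the lowest of the set in either genotype. Tdrd12 (chr7:35466941-35537744), which encodes a helicase-like protein of secondary piRNA production, had 1698, 1568, 1394, 1723 and 1421 normalized counts in WT libraries 1 to 5 and 1455, 1525, 1440, 1339 and 1369 in KI. Its log2 fold change, −0.13 (SE 0.09, interval −0.32 to 0.06, adjusted p = 0.341), was the second lowest of the 10, and the genotypes overlapped. Tdrd9 (chr12:111971559-112068854), which encodes a helicase with a Tudor domain, had 2144 ± 167 in WT (1981 to 2385) and 2162 ± 167 in KI (2058 to 2455), a log2 fold change of 0.01 (SE 0.09). Tdrd5 (chr1:156255296-156303606), needed for pachytene piRNAs and for the chromatoid body, had 1825 ± 268 in WT (1424 to 2179) and 1830 ± 129 in KI (1682 to 1959), a log2 fold change of 0.01 (SE 0.11). Their adjusted p-values were 0.940 and 0.945.

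Tdrkh (chr3:94413244-94432650), which tethers PIWI proteins to mitochondria for the trimming of piRNA ends, had 662 ± 43.1 normalized counts in WT (614 to 727) and 676 ± 55.5 in KI (599 to 739), a log2 fold change of 0.03 (SE 0.09, adjusted p = 0.870). Its value is uncertain because 2255 bases of its exons lie on the opposite strand of exons of Oaz3, a spermatid antizyme gene, and no source used here says that strand was used in counting. Oaz3 had 29468 ± 6226 normalized counts in WT and 5243 ± 1276 in KI, which is a log2 fold change of −2.50 (SE 0.19, adjusted p = 2.6e-07). How many reads of the pair were shared out wrongly was not tested. Tdrd5 shares 176 exon bases with an antisense transcript, 4930518J20Rik, which is not among the genes of the table.

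Rnf17, Stk31 and Tdrd3 join a Tudor domain to other modules. Rnf17 (chr14:56402697-56525031), a RING finger and multi-Tudor protein needed for spermatid differentiation, had 3531, 3373, 2826, 2768 and 2956 normalized counts in WT libraries 1 to 5. In KI libraries 1 to 5 it had 2895, 2592, 2592, 2781 and 3113, and its log2 fold change of −0.14 (SE 0.10, interval −0.35 to 0.06, adjusted p = 0.321) was the lowest of the set. WT libraries 1 and 2 were the 2 highest of the 10 libraries and the other WT values lay among the KI values. Stk31 (chr6:49395604-49469502), a germ cell kinase-like protein that binds PIWIL1, had 1346 ± 271 in WT (1073 to 1738) and 1327 ± 110 in KI (1200 to 1473), a log2 fold change of −0.00 (SE 0.12, adjusted p = 0.994). Tdrd3 (chr14:87416583-87545508), which reads methylarginine on histones and RNA polymerase II together with a topoisomerase, is known from most tissues and not from germ granules alone. It had 824, 869, 809, 743 and 734 normalized counts in WT libraries 1 to 5 and 784, 750, 760, 926 and 899 in KI, with a log2 fold change of 0.05 (SE 0.09, interval −0.15 to 0.25, adjusted p = 0.773). Among KI libraries, 4 and 5 were the high ones for Tdrd3, and among WT libraries, 4 and 5 were the low ones.

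Levels were compared between genes as normalized counts per kilobase of exon, with the length taken as the union of all exons of a gene in GENCODE, while the reads were counted on RefSeq genes. Tdrd6 was the most abundant at 3016 ± 317 per kilobase in WT and 3028 ± 680 in KI, followed by Tdrd7 at 1632 ± 116 and 1640 ± 269. Tdrd1 came next at 599 ± 72.6 in WT and 593 ± 21.7 in KI, then Rnf17 (495 ± 54.7 and 448 ± 35.2), Stk31 (416 ± 83.7 and 410 ± 34.1), Tdrd9 (396 ± 30.9 and 399 ± 30.8) and Tdrd12 (360 ± 35.1 and 329 ± 17). Tdrd5 (263 ± 38.7 and 264 ± 18.6), Tdrd3 (131 ± 9.38 and 136 ± 13.6) and Tdrkh (108 ± 7.02 and 110 ± 9.03) closed the order, which was the same in both genotypes under this length. In WT, the ranges of neighbours in this order overlapped from Tdrd1 down to Tdrd12, and in KI those of Rnf17, Stk31 and Tdrd9, so that these neighbours were not parted beyond the spread between libraries. Tdrd6 and Tdrd7 stood clear of each other and of the rest in both. The middle of the order depends on the length used. With the longest coding transcript as length, an alternative chosen after the data were seen, Tdrd5 was at 485 ± 71.4 per kilobase in WT, above Tdrd9 (446), Tdrd12 (427) and Stk31 (416), and Tdrd3 was at 299.6 ± 21.4. The WT ranges of the former overlapped (Tdrd5 379 to 580, Tdrd9 412 to 496, Tdrd12 382 to 472, Stk31 331 to 537). Under this length Tdrd12 stood above Stk31 in WT and below it in KI. The first 4 places and the last 2 were then held by the same genes as before.

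The share of a gene in the summed reads per kilobase of the 10 genes does not depend on how libraries are scaled to each other. Tdrd6 made up 40.6% ± 2.01 of the sum in WT and 40.8% ± 3.78 in KI, and Tdrd7 22.0% ± 1.19 and 22.2% ± 0.996 (SD, n = 5). Rnf17 differed most, with 6.68% ± 0.446 in WT and 6.13% ± 0.549 in KI, a KI less WT difference of −0.544 percentage points, and its ranges overlapped (6.12 to 7.09% and 5.53 to 6.92%). WT and KI ranges overlapped for all 10 shares. Reads on the 10 genes together were 0.230 to 0.287% of all reads on genes in WT and 0.281 to 0.361% in KI, with KI library 5 the highest.

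How libraries are scaled to each other moved all 10 fold changes together. With the size factors, the median log2 fold change was −0.00 in the set and 0.03 over all tested genes. With each library scaled to its total, the median over all genes was 0.25 and the 10 values lay between 0.09 and 0.28. Measured from that median, they lay between −0.17 and 0.02 under both scalings. Under library totals 40.5% of all tested genes passed an adjusted p under 0.05, and Tdrd3 (0.28, adjusted p = 0.0147) and Tdrd9 (0.24, adjusted p = 0.0287) were among them, both below a 1.5-fold change. Upper quartile scaling gave −0.05 to 0.14 and scaling to spermatocyte markers 0.06 to 0.25, and no member passed the adjusted p under either. The medians over all tested genes were 0.12 and 0.23 under these scalings, and those of the members 0.09 and 0.20. Among the 12 spermatocyte markers used for scaling is Syce2, itself a DEG (log2 fold change −1.62 with the size factors).

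**Figure D2:**
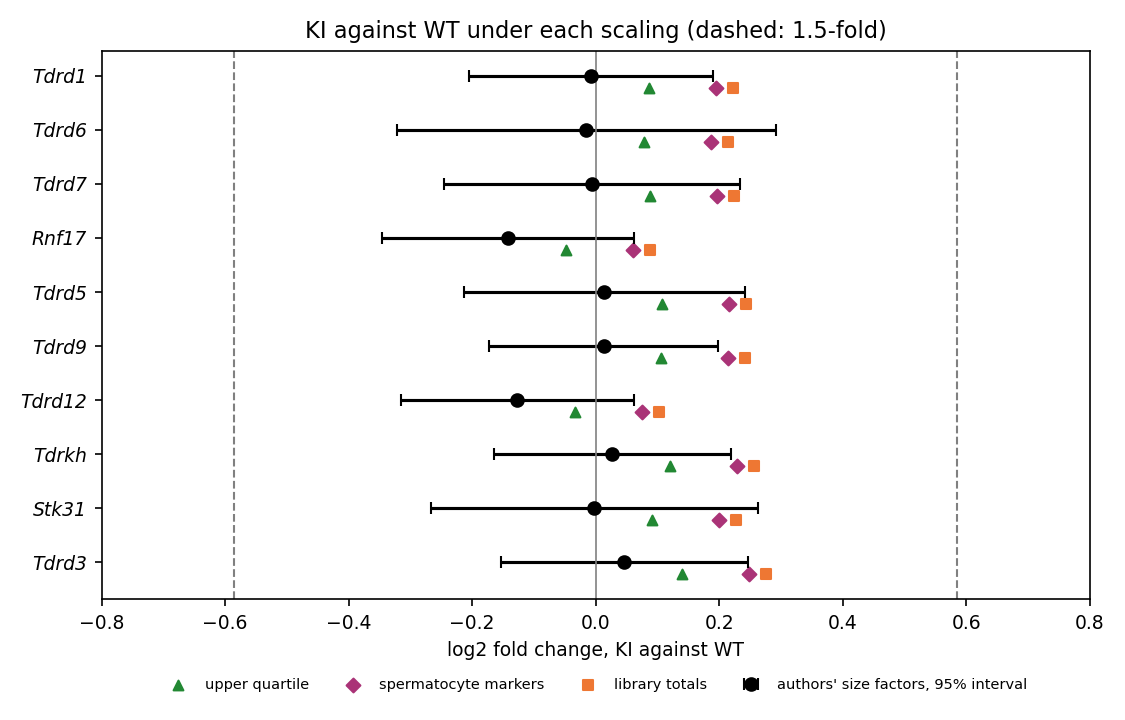
Log2 fold change of KI against WT (x axis) for each Tudor domain gene (y axis), with the authors' size factors as black points and 95% confidence intervals, and with upper quartile (triangles), spermatocyte marker (diamonds) and library total (squares) scaling as point values. All 10 intervals lie inside the dashed lines at 1.5-fold, and the squares lie to the right of the black points by nearly the same distance in every row.

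Within libraries 1 to 3, 9 of the 10 log2 fold changes were below 0, and within libraries 4 and 5, 8 were above 0. For 9 genes the sign differed between these parts. The median over all tested genes was 0.02 in each part. The 10 values share the scaling of their libraries, so their signs are not independent, and those of Tdrd1, Tdrd5 and Tdrkh lay within 1 SE of 0 in both parts. Tdrd6 was at −0.20 (SE 0.10) in libraries 1 to 3 and 0.27 (SE 0.16) in libraries 4 and 5, Tdrd7 at −0.13 (SE 0.08) and 0.18 (SE 0.14), and Tdrd3 at −0.13 (SE 0.08) and 0.30 (SE 0.14). Rnf17 was at −0.26 (SE 0.09, adjusted p = 0.0317) in libraries 1 to 3, the only member to pass an adjusted p under 0.05 in either part, and at 0.04 (SE 0.14) in libraries 4 and 5. Tdrd1 was at −0.06 and 0.06, Tdrd5 at −0.02 and 0.07, Tdrd9 at −0.08 and 0.15, and Stk31 at −0.10 and 0.14 in the same order. Tdrkh ran the other way (0.08 and −0.06), and Tdrd12 was below 0 in both parts (−0.07 and −0.21). Of all tested genes 31.3% passed in libraries 1 to 3 and 11.0% in libraries 4 and 5. In KI, the values of libraries 4 and 5 lay outside the range of libraries 1 to 3 for 8 of the 10 genes, higher for Tdrd6, Tdrd7, Tdrd9 and Tdrd3 and lower for Tdrd5, Tdrd12, Tdrkh and Stk31, and the same held for 49.0% of all tested genes.

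The difference of the KI effect between the parts was tested by an interaction term. It was 0.43 for Tdrd3 (SE 0.14, adjusted p = 0.138), 0.47 for Tdrd6 (SE 0.18, adjusted p = 0.192) and 0.30 for Tdrd7 (SE 0.14, adjusted p = 0.285), and 0 of the 10 members passed an adjusted p under 0.05, against 0.247% of all tested genes. By unadjusted p under 0.05 these 3 passed, against 16.1% of all tested genes. The parts hold 3 and 2 libraries per genotype, and what sets them apart is not given by the labels.

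**Figure D3:**
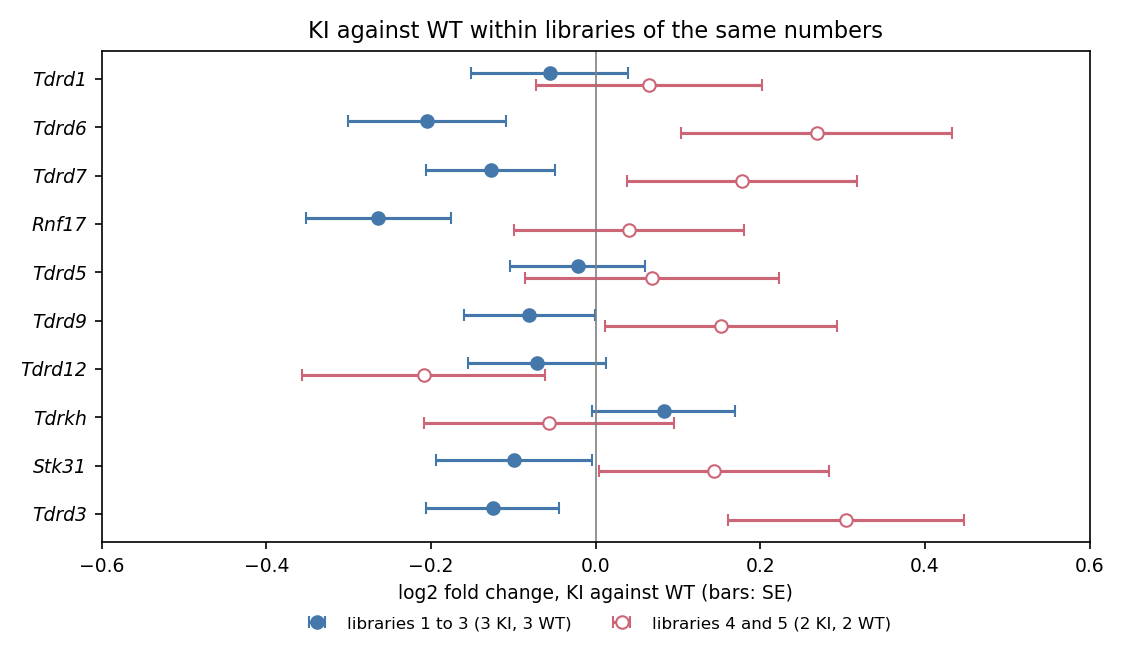
Log2 fold change of KI against WT (x axis, bars show the SE) for each Tudor domain gene (y axis), fitted within libraries 1 to 3 (filled, 3 per genotype) and within libraries 4 and 5 (open, 2 per genotype). The filled points of Tdrd6 (−0.20) and Tdrd3 (−0.13) lie left of 0 and their open points (0.27 and 0.30) right of it, while both points of Tdrd12 lie left of 0.

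The profiles most like those of Tdrd6 and Tdrd7 over the 10 libraries were sought among 10517 other genes, by the root mean square difference of log2 values after the mean of each gene was removed. For Tdrd6, whose own values spread by 0.22 around their mean on this measure, the nearest were Ccdc87 (0.05), Cbll1 (0.05) and Ccdc40 (0.06). For Tdrd7, with a spread of 0.16, they were Hsf5 (0.04), Lig3 (0.04) and Fam98a (0.04), and Tdrd6 and Tdrd7 differed from each other by 0.08. These are descriptions over 10 libraries that share their scaling.

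Proteins that sit beside the Tudor proteins were described by lists, each set beside the median of 0.03 over all tested genes. Of 20 tested piRNA and germ granule genes, 0 were DEGs, beside 14.4% of all tested genes, and their median log2 fold change was −0.04, or 0.19 under library totals. Piwil1, the PIWI protein of pachytene spermatocytes and round spermatids, had 8699 ± 983 normalized counts in WT and 8101 ± 650 in KI (log2 fold change −0.10, SE 0.10, adjusted p = 0.536). Piwil2, the partner of TDRD1, was at 0.15 (SE 0.09, adjusted p = 0.245) and Mael, a granule and chromatoid body protein, at −0.06 (SE 0.10, adjusted p = 0.750). Asz1, a scaffold of the intermitochondrial cement (−0.16, SE 0.14), and Mov10l1, the helicase that binds piRNA precursors (−0.08, SE 0.09), had adjusted p-values of 0.475 and 0.554. Ddx4, the helicase VASA, had 8909 ± 1101 in WT and 7470 ± 495 in KI, with no overlap between genotypes, and missed the threshold (−0.25, SE 0.10, adjusted p = 0.0918). It passed with the library number as a block (adjusted p = 0.0490) and in DESeq2 (adjusted p = 0.0489), in both below a 1.5-fold change. Within libraries 1 to 3 its log2 fold change was −0.38 (adjusted p = 0.00525), within libraries 4 and 5 −0.06 (adjusted p = 0.852) and under library totals −0.02 (adjusted p = 0.873). Prmt5, which makes the symmetric dimethylarginine that Tudor domains bind, had 643 ± 54.2 normalized counts in WT and 808 ± 82.5 in KI (0.33, SE 0.10, adjusted p = 0.0235). It was the only gene of that list to pass the adjusted p, as 22.9% of all tested genes did, stayed below a 1.5-fold change and is named after its value was seen. It missed the threshold in libraries 4 and 5 alone (adjusted p = 0.0976), under spermatocyte marker scaling (0.0592) and without WT library 1 (0.0631), WT library 5 (0.0528) or KI library 5 (0.0515). With the block 4 of the 20 passed the adjusted p, beside 32.0% of all tested genes, again with 0 DEGs, and Piwil2 passed under library totals (0.38, adjusted p = 0.00276) and upper quartile scaling (0.24, adjusted p = 0.0388).

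Of the other genes with Tudor-type domains, 23 of 26 were tested, and their median log2 fold change was 0.08. Akap1, Fxr1 and Sgf29 fell and none rose as DEGs, which is 13% of the list beside 14.4% of all tested genes. Akap1, which anchors protein kinase A to mitochondria, had 12093 ± 2729 normalized counts in WT and 4613 ± 347 in KI, its log2 fold change being −1.36 (SE 0.14, adjusted p = 6.3e-06). Fxr1, an RNA-binding translation regulator of spermatids, was at −0.86 (SE 0.12, adjusted p = 0.00014) and Sgf29, a reader of methylated histone H3 in the SAGA complex, at −0.78 (SE 0.17, adjusted p = 0.003). Within libraries 1 to 3 Fxr1 was at −1.11, and within libraries 4 and 5 at −0.48 (adjusted p = 0.0681), where it was no DEG. Sgf29 was at −0.70 and −0.90 in these parts, and fell short of 1.5-fold under library totals (−0.55) and spermatocyte marker scaling (−0.58). A list of 17 chromatoid body genes, most of them for RNA decay, translation or small RNA factors, had a median of −0.09. Kif17 (−0.96, SE 0.12, adjusted p = 3.2e-05), a kinesin, and Hook1 (−0.89, SE 0.11, adjusted p = 4.3e-05), a manchette protein, were down-regulated, with 0 up-regulated, which is 11.8% of that list. Both shares lie near the share of all tested genes. KIF17 and HOOK1 are known to work along microtubules. Dcp1a, a decapping protein named after its value was seen, was at −0.45 (adjusted p = 0.0108), below a 1.5-fold change. It was a DEG within libraries 1 to 3 (−0.60, adjusted p = 0.000381). It missed the adjusted p within libraries 4 and 5 (−0.24, adjusted p = 0.450). The same held under library totals (−0.23, adjusted p = 0.130) and spermatocyte marker scaling (−0.25, adjusted p = 0.263).

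**Figure D4:**
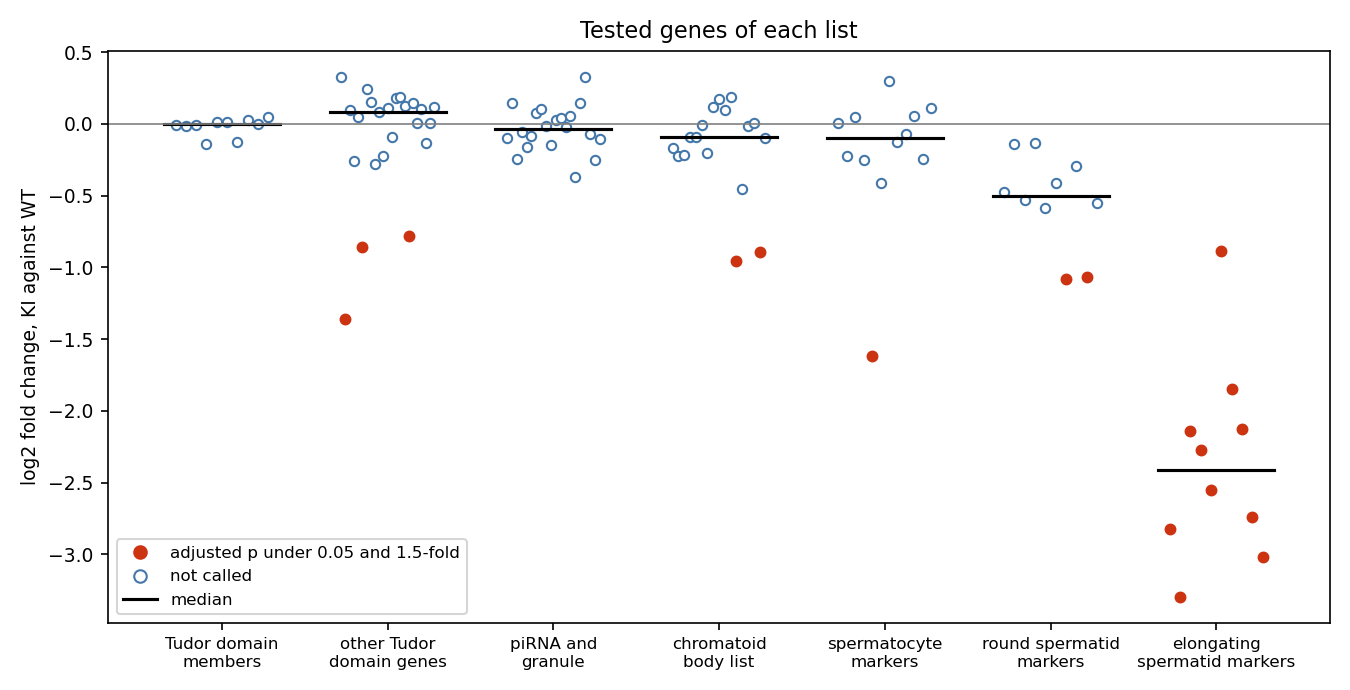
Log2 fold change of KI against WT (y axis) of every tested gene in 7 lists (x axis), with filled points for genes at an adjusted p under 0.05 and at least 1.5-fold, open points for the rest, and a line at each median. The 10 Tudor domain genes lie between −0.14 and 0.05 with no filled point, while all 10 markers of elongating spermatids are filled, with a median of −2.41.

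Markers were counted for the cell types that the preparation could hold, beside the 14.4% of all tested genes that were DEGs. All 10 markers of elongating spermatids fell, among them Prm2, a protamine of the sperm head (89159 ± 25520 normalized counts in WT and 9282 ± 3127 in KI, log2 fold change −3.30, SE 0.25, adjusted p = 3.2e-07), and Tssk6, a spermatid kinase (−3.02, SE 0.21, adjusted p = 1.4e-07). Within libraries 4 and 5 alone, 9 of these 10 passed the adjusted p, beside 11.0% of all tested genes. Within libraries 1 to 3 alone all 10 did, beside 31.3%. In RNA of mixed cells alone, fewer cells of a type and less RNA per cell cannot be told apart. The study reports from earlier work that homozygous KI testes hold no elongating spermatids or mature sperm, because round spermatids fail to elongate. Of 10 markers of round spermatids, Tssk2 (−1.08, SE 0.15) and Pgk2 (−1.07, SE 0.20) fell as DEGs and the median was −0.50. In libraries 4 and 5 alone 6 of the 10 were DEGs, beside 10.1% of all tested genes, and in libraries 1 to 3 alone 3 were, beside 15.8%. Of 12 spermatocyte markers, Syce2, of the synaptonemal complex, fell (−1.62, SE 0.13, adjusted p = 3.7e-07), and the median was −0.10, with 3 DEGs in libraries 4 and 5 alone and 1 in libraries 1 to 3 alone. Of 8 spermatogonial markers none was a DEG (median 0.01).

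Summed over its 10 genes, the elongating spermatid list had 414697, 465797, 498793, 304821 and 298637 normalized counts in WT libraries 1 to 5 and 89175, 99892, 97483, 92171 and 67380 in KI, with Prm2 its most abundant gene. The round spermatid list had 59426, 63238, 61290, 54796 and 48056 in WT and 38694, 40857, 39537, 32511 and 23843 in KI, with Pgk2 the most abundant. The 10 Tudor domain genes summed to 45632, 44493, 37068, 41325 and 43687 in WT and 37921, 38996, 36861, 46436 and 50467 in KI. Tdrd6 was the most abundant gene of that sum, with Tdrd7 next. KI libraries 4 and 5 were thus the highest of the 10 for a sum led by these genes, while Tdrd5, Tdrd12, Tdrkh and Stk31 were lower there than in KI libraries 1 to 3. KI libraries 4 and 5 were also the lowest for the round spermatid markers, and the part of the cell mixture in these values was not tested.

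Somatic markers were present too, with 0 of them at 0 in any library. Leydig cell markers were up-regulated in 4 of 7 genes (median 0.69), with Insl3 the most abundant, and their sums were 11902, 19503, 10875, 11735 and 15359 normalized counts in WT libraries 1 to 5 and 22928, 24150, 27046, 15729 and 26702 in KI. That count of 4 was 1 without WT library 1, WT library 3 or KI library 5, 2 without WT library 4 and 7 without WT library 2. It was 3 within libraries 1 to 3, 1 within libraries 4 and 5 and 7 under library totals, where up-regulated DEGs rose from 6.13% to 13.9% of all tested genes. Macrophage markers were up-regulated in 6 of 9 (median 0.69, most abundant Mrc1), or in 3 within libraries 1 to 3 and 2 within libraries 4 and 5, with sums of 788 to 1032 in WT and 1190 to 1559 in KI. Sertoli markers gave 0 of 8 (median 0.19, most abundant Clu), or 2 within libraries 1 to 3, peritubular myoid markers 2 of 4 tested (1 without any single library other than WT 4, WT 5 or KI 2) and endothelial markers 1 of 4 (0 without KI library 5). The Sertoli sums were 7788, 5957 and 9832 normalized counts in WT libraries 1 to 3 and 10169, 8974 and 10491 in KI. In libraries 4 and 5 these sums were 8645 and 9349 in WT and 6115 and 6899 in KI. There 1 of the 8 Sertoli markers passed the adjusted p (0.0257), beside 11.0% of all tested genes. Within libraries 4 and 5, 0 of the myoid and 0 of the endothelial markers were DEGs. The part of these cells in the values of the Tudor domain genes was not tested.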

How the data were processed

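RNA-seq of germ cells from 5 WT and 5 KI mice was used, 1 library per mouse, paired-end reads of 150 bases. Per the study's methods and the submitters' processing notes, reads were trimmed, aligned to mm10 with STAR in Partek Flow and counted on RefSeq genes with the Partek E/M model. The deposited values are a signal: the authors' gene counts divided by DESeq2 size factors. Within each library 100% of values under 5000 reads were whole multiples of 1 read (tolerance 0.1 reads), so reads were recovered by division. Every column was assigned to a library (0 left over).

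Log2(normalized count + 1) was compared with limma 3.58.1 (R 4.3.3, variance trend) on the 15389 genes passing filterByExpr of edgeR, with Benjamini-Hochberg adjustment over all of them. The thresholds were an adjusted p under 0.05 and a fold change of 1.5. Because the values are normalized, edgeR 4.0.16 and DESeq2 1.42.0 on the recovered reads were alternatives, with other pseudocounts, filters and scalings, a replicate block, a term for library number, each part of the libraries alone and each library left out. Whether libraries of one number are pairs was checked on the values: after removing genotype means, same-numbered WT and KI libraries correlated at 0.306, 0.105, 0.280, 0.216 and 0.462, against a mean of 0.134 for libraries of other numbers within the same part, so that number 2 lay below that mean. No label states a pairing. Between replicates, chi-square per degree of freedom was 2.67 to 46.4, so no library was a copy. Nothing beyond 1 mouse per library is known of how the mice were paired.

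The members and lists were chosen with earlier results of these data known. All 10 members are named. Of each list at most the 4 DEGs with the largest change are named, plus Piwil1, Piwil2, Ddx4, Mael, Asz1, Mov10l1 and Mybl1, the target Ddx25 and the 3 genes nearest in profile to Tdrd6 and to Tdrd7. Outside that rule, Prmt5 and Dcp1a are named after their values were seen, Oaz3 for its overlap with Tdrkh, and Insl3, Mrc1 and Clu as the most abundant genes of their lists. Spin2c, Spin4, Phf19, Piwil4 and Nanos3 are not in the table and Cnn1 did not pass the filter. Lists were counted and given medians, with no set test. The method was tested on simulated data. Stop positions in the table lie 1 base past the last base of a gene and were lowered by 1. Gene lengths and overlaps came from GENCODE vM21, promoters from RefSeq on GRCm38.p6.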

Additional observations from a re-analysis of the deposited data

Results flagged for a closer look

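Of 46 groups of 5 libraries checked, 1 held a library far from the others: Tdrd9 in KI, where library 5 had 2455 normalized counts and the next highest 2141. Chance gives such a library in about 1 in 20 groups. For Tdrd3, every KI library lay below every WT library within libraries 1 to 3 and above within libraries 4 and 5, and the difference of the log2 fold changes between these parts was 0.43 (limma interaction term, adjusted p = 0.138, which misses the threshold).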

How the results depend on the processing

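The count of differentially expressed Tudor domain genes was 0 under every alternative run. By adjusted p alone it was 0, except 2 (Tdrd3 and Tdrd9) with scaling to library totals and 1 (Rnf17, −0.26) in libraries 1 to 3 alone. All genes called numbered 2209, 1971 to 2303 with 1 library left out, and 3529 by adjusted p alone. With the replicate block, 2410 genes were called, 0 of them members, and of the genes named here the block changed only the call of Ddx4 by adjusted p, which DESeq2 and libraries 1 to 3 alone changed too. By that measure it moved the other Tudor domain genes from 4 to 8 and the piRNA and granule genes from 1 to 4, while all genes went from 3529 to 4926, and Leydig DEGs went from 4 to 6. The sign of the members' log2 fold changes, which lay close to 0, turned under several settings, and the cause was not tested. With scaling to library totals it turned for Tdrd1 (0.22), Tdrd6 (0.21), Tdrd7 (0.22), Rnf17 (0.087), Tdrd12 (0.10) and Stk31 (0.23), and with spermatocyte marker scaling for the same 6 (0.19, 0.19, 0.20, 0.060, 0.075 and 0.20). Upper quartile scaling turned Tdrd1 (0.086), Tdrd6 (0.078), Tdrd7 (0.089) and Stk31 (0.092). Tdrd6 and Tdrd7 turned to 0.0022 and 0.0027 with edgeR and TMM and to 0.0057 and 0.0068 both with DESeq2 and with edgeR on DESeq2 size factors. Libraries 4 and 5 alone turned Tdrd1 (0.065), Tdrd6 (0.27), Tdrd7 (0.18), Rnf17 (0.040), Tdrkh (−0.056) and Stk31 (0.14), and libraries 1 to 3 alone turned Tdrd5 (−0.022), Tdrd9 (−0.080) and Tdrd3 (−0.13). With 1 library left out, Tdrd1 ranged from −0.058 to 0.057, Tdrd6 from −0.12 to 0.051, Tdrd7 from −0.069 to 0.050, Tdrd5 from −0.072 to 0.082, Tdrd9 from −0.034 to 0.052, Tdrkh from −0.0062 to 0.069 and Stk31 from −0.078 to 0.096. The members had 546 reads or more in every library, and the effect of depth on their values was not tested.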
